A study of Nothobranchius furzeri with 16 samples.

Results

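In the adipose tissue of male turquoise killifish (Nothobranchius furzeri), 150 of 18606 measured genes formed the group described here, the genes that stood highest in fasted over refed fish at both ages. The members were chosen from the normalized expression values themselves. A gene had to average at least 100 normalized units over the 16 fish and lie outside the 50 genes of highest mean, which 11685 genes did. Every fasted fish then had to exceed every refed fish of its own age, in old and in young fish, which left 1256 genes. These were ranked by the smaller of the old and the young difference between fasted and refed fish, each a difference of mean log2(value + 1), and the first 150 were kept. The other 1106 genes with the same order of the fish ranked after them.

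The samples came from the wild-type laboratory strain GRZ-AD and fell into 4 groups of 4 fish: old fasted, old refed, young fasted and young refed. Old fish were 18 weeks and young fish 7 weeks of age according to the labels. All fish, refed ones included, had food withheld for 72 h, and refed fish then had 24 h of feeding, so no group was fed throughout. Fish were kept singly, each library was taken as 1 fish, and RNA from all samples was extracted together.

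Adipose tissue stores energy as triglyceride. During fasting, low insulin and rising catecholamine signals favour lipolysis, which breaks triglyceride down and releases fatty acids and glycerol for other tissues, and feeding turns the tissue back to glucose uptake and lipid synthesis. The turquoise killifish is an annual fish with one of the shortest lifespans among vertebrates kept in the laboratory, which makes fasting and refeeding measurable across adult age.

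The table names genes by Ensembl identifiers only and does not pair them with symbols, and none of them (0 of 18606) was found among the 38438 genes of the RefSeq table at hand. No function is therefore given to any member, lists of lipolysis, lipid synthesis, autophagy or growth signalling genes could not be applied, and the adipose label could not be checked against marker genes. Members are called by rank, with 4 identifiers. In whole tissue, fewer cells of a type and less RNA per cell cannot be told apart.

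The deposited columns summed to 19.0–21.3 M units in old fasted, 14.3–17.0 in old refed, 24.5–28.3 in young fasted and 21.0–26.6 in young refed fish. The steps between low values gave approximate depths of 32.7–38.3 M reads in old fasted, 20.3–36.1 in old refed, 40.1–50.9 in young fasted and 42.2–51.5 in young refed fish. Every old fish lay below every young fish in this estimate, so depth and age cannot be told apart. The ERCC spike-ins, RNA of known sequence added to each sample, stood higher with fasting by 0.66 in old and by 0.71 in young fish, as log2 differences of their mean level in the deposited values. Nothing in the sources used here says that spike-in RNA was added in proportion to tissue or to total RNA. The part of that difference in the results was not tested. Several results over the whole group are given on a spike-in scale as well. Values and fasting differences of single genes are as deposited unless a scale is named.

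The group covered a wide range of expression. Averaged over the 16 fish, members had between 102 and 23678 units, with a median of 487. The values are not corrected for gene length, so they rank signal and not transcripts. Of the members, 41 lay below 250 units, 62 between 250 and 1000 and 47 at 1000 or more. The median member had a mean of 646 units in old fasted fish and 253 in old refed fish, and of 760 units in young fasted and 208 in young refed fish.

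Averaged over the 150 members as log2(value + 1), the 4 old fasted fish stood at 9.49, 9.57, 9.70 and 9.87 and the 4 old refed fish at 8.49, 8.03, 7.90 and 8.60. The 4 young fasted fish stood at 9.83, 10.0, 9.91 and 9.56 and the 4 young refed fish at 7.97, 8.31, 7.84 and 7.75. The gap between feeding states, which the choice of members fixed, was far wider than the spread within groups, and the refed fish of the 2 ages overlapped. Means were 9.66 ± 0.166 in old fasted, 8.26 ± 0.343 in old refed, 9.82 ± 0.188 in young fasted and 7.97 ± 0.244 in young refed fish (SD, n = 4 each). As a share of all signal from fish genes, the members held 1.51% ± 0.219 in old fasted fish and 0.777% ± 0.222 in old refed fish, and 1.15% ± 0.185 in young fasted and 0.412% ± 0.0506 in young refed fish (SD, n = 4 each).

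**Figure D1:**
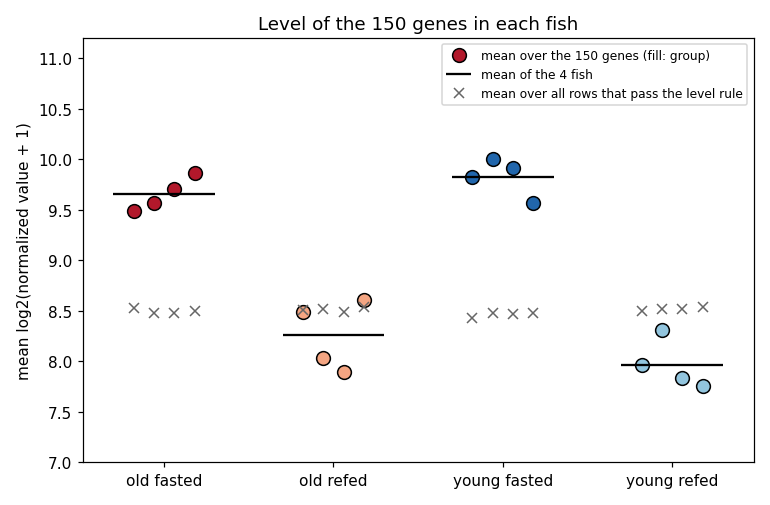
Mean log2(normalized value + 1) of the 150 members in each of the 16 fish (coloured points), with the mean of each group of 4 (black line) and, as crosses, the mean over all 11685 genes that passed the level rule. The members separate fasted from refed fish at both ages, as the rule requires, with old fasted fish between 9.49 and 9.87 and old refed fish between 7.90 and 8.60.

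The fasting difference had a median of 1.25 in old fish, with an interquartile range of 1.12 to 1.52 and a full range of 1.01 to 3.60. In young fish the median was 1.62, the interquartile range 1.40 to 2.17 and the full range 1.01 to 5.33. Among all genes that passed the level rule the medians were −0.00 in old and 0.01 in young fish, and among the 1106 later genes of the same order they were 0.46 and 0.64. A difference of at least 2 was seen in 15 members in old fish and in 50 in young fish, and in 13 members at both ages. A difference of at least 3 was seen in 1 member in old fish and in 13 in young fish. These values chose the members and are a description.

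All 150 members passed the limma threshold (adjusted p under 0.05 over all 18606 genes) for higher values in fasted fish at both ages. The rule left little room for another outcome, and nothing is read from this count. Over all genes, 12.1% were called higher with fasting in old fish and 27.1% in young fish. The order of the fish, in which feeding states do not overlap, was kept by 12.4% of all genes in old and 25.0% in young fish, and at both ages by 10.7% of the genes that passed the level rule. At the edge of the rule, the member of rank 150 had differences of 1.01 in old and 1.13 in young fish, and the first gene left out had 1.01 in old and 1.85 in young fish.

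The member of rank 1, ENSNFUG00015019120, had 5513, 3045, 8307 and 3699 units in old fasted fish and 1500, 43.1, 133 and 2662 units in old refed fish. It had 4642, 10532, 4686 and 1972 units in young fasted fish and 29.0, 203, 408 and 67.2 units in young refed fish. The old refed fish were split into a pair at 1500 units or more and a pair at 133 or less, the highest of them just below the lowest old fasted fish, while young fasted and young refed fish were far apart. The fasting difference was 3.60 in old and 5.33 in young fish on the log2(value + 1) scale, that is 12.2-fold and 40.4-fold.

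The same old refed fish were the higher pair in other members of high rank. Rank 2 had 3412, 3540, 4390 and 5290 units in old fasted fish and 731, 407, 285 and 869 in old refed fish, and 4326, 4515, 4630 and 3178 in young fasted and 632, 306, 213 and 157 in young refed fish. Rank 6 had 17156, 18218, 22362 and 24623 units in old fasted fish and 6998, 3077, 1615 and 6176 in old refed fish, and 23019, 19523, 24819 and 15332 in young fasted and 3699, 2194, 1457 and 964 in young refed fish. In both genes fasted fish of the 2 ages overlapped, and old refed replicates 1 and 4 stood above all young refed fish.

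The member of highest mean, ENSNFUG00015000694, ranked 147 because its differences were small. It had 27470, 28762, 31638 and 35882 units in old fasted fish and 18296, 13532, 10953 and 13930 units in old refed fish. It had 30198, 37432, 37538 and 27719 units in young fasted fish and 16635, 17035, 17131 and 14695 units in young refed fish. The 2 ages overlapped in both feeding states. As deposited, the fasting differences were 1.14 in old and 1.01 in young fish, or 2.21-fold and 2.01-fold.

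The choice was repeated on part of the fish, as a description that gives no separate support for the members. When the 150 genes were chosen in young fish alone by the same rule, limma called 124 higher and 0 lower with fasting in old fish, against 16.1% of the genes that passed the level rule called higher. Their median difference was 1.84 in the young fish that chose them and 1.15 in the old fish, and 143 were positive in old fish. In 118 every old fasted fish exceeded every old refed fish, against 16.1% of the genes that passed the level rule. When the 150 genes were chosen in old fish alone, limma called 139 higher and 1 lower with fasting in young fish, against 29.3% of the genes that passed the level rule called higher. Their median difference was 1.30 in the old fish that chose them and 1.59 in the young fish, and 149 were positive in young fish.

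On the spike-in scale these counts were smaller. Of the genes chosen in young fish, 80 were called higher and 2 lower in old fasted fish, against 1.26% of the genes that passed the level rule called higher. Of the genes chosen in old fish, 115 were called higher and 4 lower in young fasted fish, against 3.12%. The share of the chosen genes called higher was above that among all genes that passed the level rule on both scales. Nothing is read from this, because many of the chosen genes were members. Of the genes chosen in young fish as deposited 94 were members, and of those chosen in old fish 125. The limma fit shared its estimate of the spread between the ages, so choosing and testing were not fully separate. The members were chosen on the same differences, so these counts are a description and no separate support for them.

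The choice was also repeated 16 times with 1 fish left out, and the fish left out was set against the opposite feeding state of its age. It fell on its own side of all 4 of those fish in 145–149 of the 150 chosen genes for old fasted fish, 144–149 for old refed, 147–150 for young fasted and 146–150 for young refed fish. Among the genes that passed the level rule this held for 28.2–32.9% for old fasted and 30.7–37.7% for old refed fish. It held for 36.8–38.7% for young fasted and 37.9–40.0% for young refed fish. The 4 fish it was set against had taken part in the choice, so these shares are not a no-change value for the chosen genes. The counts are therefore a description. Between 132 and 148 of the genes chosen without a fish were members.

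The fasting difference was smaller in old than in young fish for 128 of the 150 members (85.3%), with a median ratio of old to young difference of 0.762. Among the 1106 later genes of the same order this was so for 79.5%. The count of members was 144 on the CPM scale and 121 on the spike-in scale, with no share over other genes given for these scales. The median of the old minus young difference between fasting effects was −0.41 over the members. Over the genes that passed the level rule it was 0.03, and over the later genes of the same order −0.19. The rule used both fasting differences, and these values are a description with no test.

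**Figure D2:**
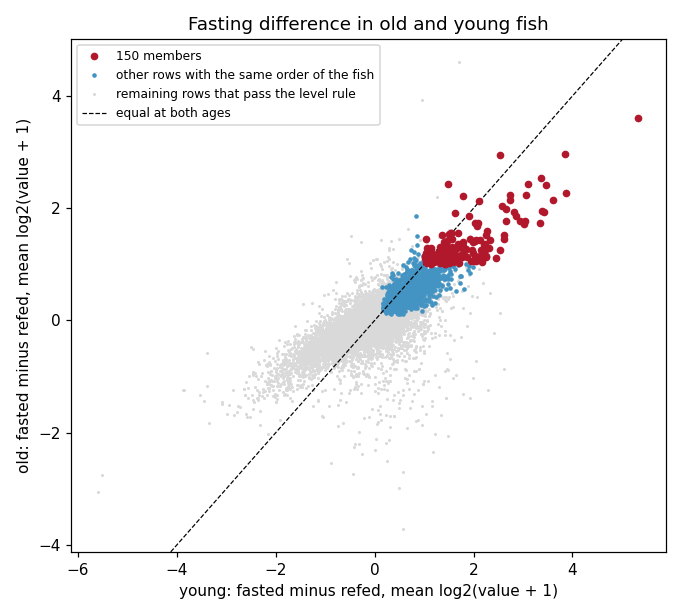
Fasted minus refed difference of mean log2(value + 1) in old fish (vertical axis) against young fish (horizontal axis) for each gene that passed the level rule, with the 150 members, the 1106 later genes of the same order of the fish and the remaining genes in separate colours. Of the members, 128 lie below the dashed line of equal difference, and the highest point, at 3.60 in old and 5.33 in young fish, is the member of rank 1.

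Members differed in where the smaller old difference lay. Rank 7 had 1428, 1381, 1426 and 1657 units in old fasted fish and 536, 208, 185 and 409 in old refed fish, and 2884, 2670, 2470 and 3153 in young fasted and 270, 266, 98.7 and 183 in young refed fish. Its old fasted fish were all below its young fasted fish, while the refed fish overlapped. Rank 26 had 1183, 1576, 1861 and 2255 units in old fasted fish and 713, 459, 240 and 821 in old refed fish, and 1397, 2123, 1777 and 1188 in young fasted and 131, 164, 154 and 173 in young refed fish. Here the fasted fish overlapped and every old refed fish was above every young refed fish.

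Over the whole group the same 2 forms were seen in the group means. Between old and young fasted fish the median member differed by −0.14, and 54 of 150 were higher in old. Between old and young refed fish the median member differed by 0.39, and 112 of 150 were higher in old. Of the 11685 genes that passed the level rule, 6277 were higher in old in fasted fish and 5667 in refed fish. Of the 1106 later genes of the same order, 329 were higher in old in fasted fish and 739 in refed fish. The later genes thus leaned the same way as the members in both feeding states. Every old fasted fish exceeded every young fasted fish in 4 members, against 10.7% of all genes and 14.5% of those that passed the level rule. Every old fasted fish lay below every young fasted fish in 31 members, against 9.21% of all genes and 11.1% of those that passed the level rule. Every old refed fish exceeded every young refed fish in 19 of the 150 members, near the 11.3% of all genes and 11.1% of those that passed the level rule. Every old refed fish lay below every young refed fish in 9 members, against 14.5% of all genes and 19.5% of those that passed the level rule.

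These age medians moved with the scaling of the fish. With each fish scaled to the same total of fish genes (CPM), the median member was 0.24 higher in old than in young fasted fish, where the median of all genes was 0.31, and 0.87 higher in old than in young refed fish, where the median of all genes was 0.50. On the spike-in scale the values were 0.19 in fasted fish, where all genes had 0.32, and 0.66 in refed fish, where all genes had 0.31. The sign in fasted fish therefore turned on both scales. As deposited, the median member had −0.138 in fasted fish, where all genes had −0.002, and 0.389 in refed fish, where all genes had 0.038. The median member thus lay below that of all genes in fasted fish and above it in refed fish on each scale. In fasted fish the 2 medians lay closer together on the CPM scale than as deposited. Scaling acts on all genes of a fish, so this order is no separate check. The age difference in fasted minus that in refed fish equals the old minus the young fasting difference. The rule used those fasting differences, so these places are a description with no test.

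The age difference averaged over feeding states is the comparison that the rule did not use. limma called 43 members (28.7%), 20 higher and 23 lower in old than in young fish, against 11.6% of all genes higher and 11.4% lower. Among the genes that passed the level rule 29.2% were called, 13.7% higher and 15.5% lower. The members, at 13.3% higher and 15.3% lower, lay near that background in either direction. The 20 higher members had a median log2 difference of 0.60 and a range of 0.35 to 1.05, and the 23 lower members a median of −0.78 and a range of −0.32 to −1.71. The other 107 members did not pass the threshold. The median over all members was 0.13, against −0.00 over the genes that passed the level rule.

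Both counts depended on the scaling, and that of members higher in old also changed when 1 fish was left out. The count higher in old was 109 on the CPM scale, where 78.7% of all genes were called higher in old. On the spike-in scale it was 86, where 53.6% were. Among the genes that passed the level rule these shares were 85.5% on the CPM scale and 61.5% on the spike-in scale. Without old refed replicate 3, the fish of lowest approximate depth, it was 35, with no share over all genes given for that fit. The count of members lower in old was 10 on the CPM scale, where 1.59% of all genes were called lower in old. It was 15 on the spike-in scale, where 2.68% were. Among the genes that passed the level rule these shares were 1.83% on the CPM scale and 3.36% on the spike-in scale. The median age difference of all genes was 0.01 as deposited, 0.41 on the CPM scale and 0.31 on the spike-in scale. The median member lay above it by 0.12 as deposited, 0.16 on the CPM scale and 0.12 on the spike-in scale.

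**Figure D3:**
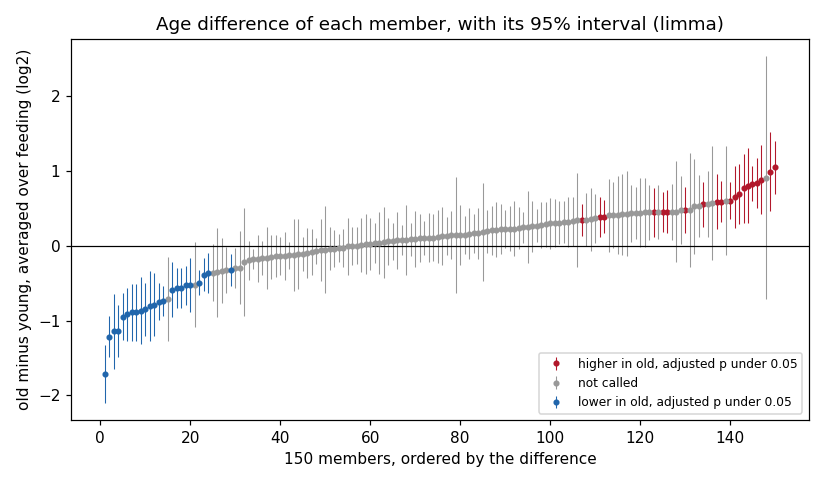
Old minus young difference, averaged over feeding states, of log2(value + 1) for each of the 150 members in order of size, with its 95% interval from limma. Red members (20) were called higher and blue members (23) lower in old fish at an adjusted p under 0.05, and 107 grey members were not called.

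Of the members lower in old fish, ENSNFUG00015013488 (rank 38) differed most. It had 2177, 2146, 1965 and 2371 units in old fasted fish and 350, 356, 373 and 545 units in old refed fish. It had 5122, 6914, 4642 and 4088 units in young fasted fish and 1354, 3120, 1145 and 2264 units in young refed fish. Old fish were below young fish without overlap in both feeding states. Averaged over feeding, the gene was lower in old fish by a log2 difference of −1.71 (SE 0.18, 95% interval −2.10 to −1.33, n = 8 fish per age, limma adjusted p = 1.88e-05), or 0.305-fold. An exact two-sided permutation test of age within feeding states gave p = 0.000408, the smallest its 4900 arrangements allow. The gene was chosen for the size of its age difference, so both p-values carry that choice. The same gene had the largest fasting difference in old relative to young fish among the members, 2.43 in old and 1.48 in young fish.

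The second in size was ENSNFUG00015008147 (rank 50), with 189, 280, 198 and 187 units in old fasted fish and 57.8, 115, 57.8 and 70.3 units in old refed fish. It had 438, 450, 484 and 481 units in young fasted fish and 193, 172, 162 and 190 units in young refed fish. Replicate 2 was highest in both old groups, and no old fish reached a young fish of its feeding state. The difference was −1.22 (SE 0.13, 95% interval −1.49 to −0.94, n = 8 fish per age, limma adjusted p = 2.01e-05), with the same exact permutation p of 0.000408. This gene was chosen in the same way. The fasting difference was 1.53 in old and 1.37 in young fish.

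The member of rank 20 gave a further example, with 1930, 2820, 1884 and 2609 units in old fasted fish and 341, 656, 390 and 657 in old refed fish, and 3869, 4353, 4863 and 4243 in young fasted and 983, 3014, 722 and 1163 in young refed fish. Young refed replicate 2 stood well above the other young refed fish, and all old fish lay below the young fish of their feeding state. Its age difference was −1.14 (limma adjusted p = 0.00278). Every old fish lay below every young fish in both feeding states in 9 members, against 2.48% of all genes. The share among the genes that passed the level rule is not given here. The members of rank 116 and 117 had identical values in all 16 fish, so they are 1 measurement counted 2 times, both among the members lower in old at −0.89 (limma adjusted p = 0.00248).

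Among members higher in old fish, the member of rank 123 differed most. It had 1343, 1182, 1543 and 1918 units in old fasted fish and 1036, 601, 451 and 868 in old refed fish, and 604, 1036, 900 and 647 in young fasted and 337, 326, 311 and 269 in young refed fish. Old fish exceeded young fish without overlap in both feeding states, which held for 1 member, against 2.16% of all genes. The share among the genes that passed the level rule is not given for this order either. The age difference was 1.05 (SE 0.16, n = 8 fish per age, limma adjusted p = 0.000344). The fasting difference was 1.07 in old and 1.32 in young fish.

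The member of rank 10 was also higher in old fish, with 1191, 1091, 1539 and 1744 units in old fasted fish and 403, 271, 165 and 487 in old refed fish, and 1017, 866, 1130 and 505 in young fasted and 95.8, 229, 133 and 83.8 in young refed fish. Old and young fish overlapped in both feeding states. Its age difference was 0.99 (limma adjusted p = 0.00921), and that of rank 26, whose values are given above, was 0.89 (limma adjusted p = 0.00809).

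Neither of the other 2 named members passed the age test. ENSNFUG00015019120 had an age difference of 0.91 (SE 0.77, n = 8 fish per age, limma adjusted p = 0.435, exact permutation p = 0.317), and its SE was the widest of the 4 named members. With 1 fish left out the difference lay between 0.45, without old refed replicate 4, and 1.44, without old refed replicate 2, and passed the threshold in none of these fits. ENSNFUG00015000694 had −0.16 (SE 0.11, limma adjusted p = 0.294, exact permutation p = 0.142), and this sign turned to 0.34 on the CPM scale, where the call was also made (limma adjusted p = 0.00698).

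The spread between fish of a group was also measured. The median SD of log2(value + 1) over the members was 0.234 in old fasted, 0.419 in old refed, 0.253 in young fasted and 0.368 in young refed fish. Over the genes that passed the level rule it was 0.138 in old fasted, 0.165 in old refed, 0.141 in young fasted and 0.165 in young refed fish. The SD was larger in refed than in fasted fish for 118 members in old fish, against 61.2% of the genes that passed the level rule, and for 101 members in young fish, against 59.0%. An SD above 0.5 was seen in 6 members in old fasted, 47 in old refed, 14 in young fasted and 49 in young refed fish. No share over other genes is given for this limit. The rule acted on the level and the order of the fish in both feeding states. The genes that passed the level rule are therefore not a no-change value for the spread, and these counts are a description.

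Members were also compared with each other from fish to fish. After the group means were removed, the median correlation over the 11175 pairs of members was 0.405 across 16 fish, with quartiles of 0.18 and 0.60, and 89.1% of pairs were positive. The median pair was 0.00785 among the genes that passed the level rule and 0.213 among the later genes of the same order. The fish share library and depth across genes, and this contrast depended on the scaling. On the CPM scale the median pair was 0.394 among members and 0.293 among the genes that passed the level rule, and on the spike-in scale 0.283 and 0.273.

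Some fish stood on 1 side of their group in most members. Old refed replicates 1 and 4 both exceeded replicates 2 and 3 in 99 of 150 members, against 24.9% of the genes that passed the level rule, and the median deviations of old refed fish from their group mean were 0.25, −0.15, −0.33 and 0.28. Old fasted replicate 4 was the highest old fasted fish in 105 members. It lay above its group mean in 134 members, against 58.0% of the genes that passed the level rule. Young fasted replicate 4 was the lowest young fasted fish in 102 members, and young refed replicate 2 the highest young refed fish in 84. They lay above their group means in 19 and 130 members, against 52.0% and 54.3% of the genes that passed the level rule. In 146 members the deviations correlated positively with the median profile of the other members, in 112 above 0.5. The exceptions had ranks 50, 112, 144 and 145, the lowest being ENSNFUG00015008147 at −0.21.

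**Figure D4:**
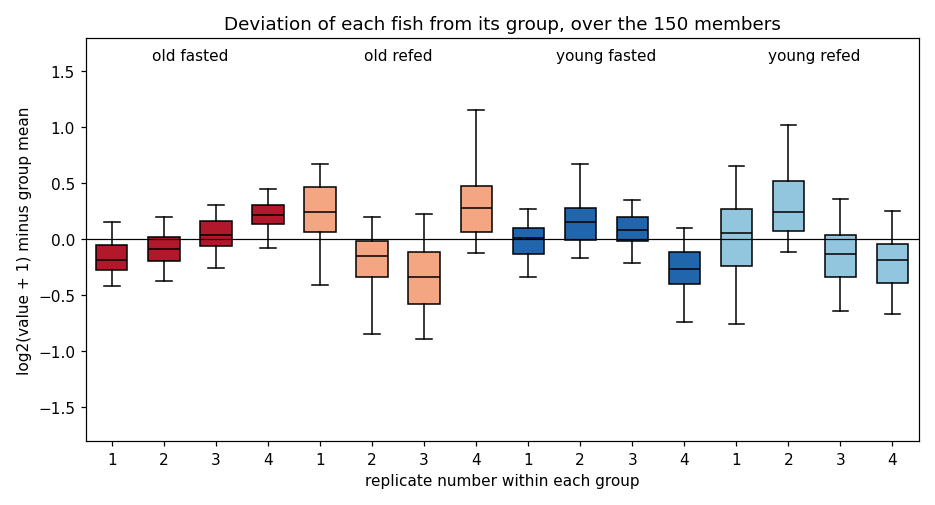
Deviation of log2(value + 1) from the group mean over the 150 members in each fish, by group and replicate number, with boxes from the 25th to the 75th percentile, the median as a line and whiskers from the 5th to the 95th percentile. Old refed replicates 1 and 4 have medians of 0.25 and 0.28, and old refed replicate 3 has −0.33.

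Every member was higher in fasted fish at both ages on each of the 5 scalings tried. On the spike-in scale the smallest fasting difference of any member was 0.35 in old and 0.30 in young fish. The rule used these differences, so the values by scaling are a description. The median fasting difference of the members was 0.82 in old and 1.34 in young fish on the CPM scale, and 0.59 in old and 0.91 in young fish on the spike-in scale. The median of all genes was −0.30 in old and −0.04 in young fish on the CPM scale, and −0.67 in old and −0.60 in young fish on the spike-in scale. The distance between the members' median and that of all genes was 1.27 in old and 1.52 in young fish as deposited. It was 1.26 in old and 1.51 in young fish on the spike-in scale, and 1.13 in old and 1.39 in young fish on the CPM scale. CPM values are smaller than the deposited ones, so the 1 added before the log weighs more there. Its part in the shorter distance was not tested. On the spike-in scale 114 members passed the limma threshold for higher values in old fasted fish, where 0.957% of all genes did, and 135 in young fasted fish, where 2.82% did. Nothing is read from these counts either, since the rule used the same differences. The full order of the fish at both ages was kept by 111 members on the CPM scale and by 60 on the spike-in scale.

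**Figure D5:**
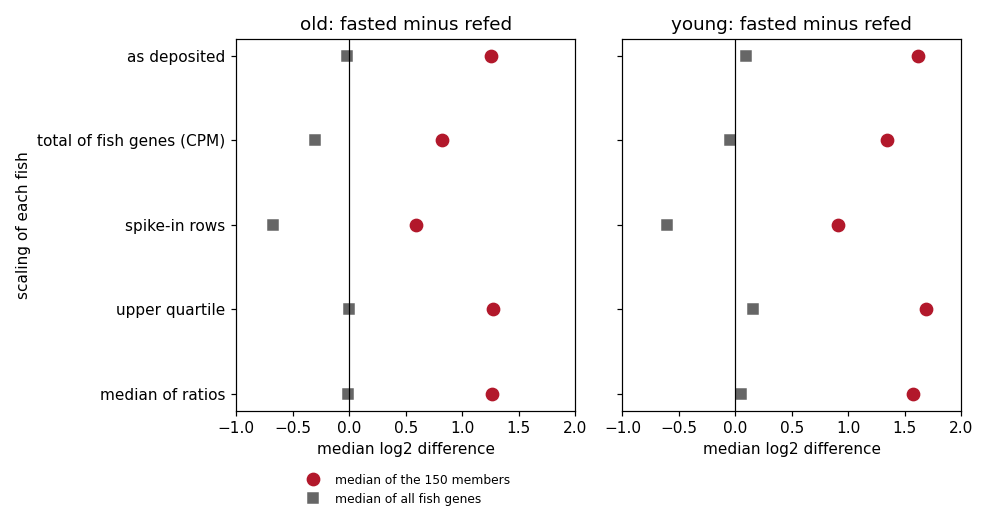
Median fasted minus refed log2 difference of the 150 members (circles) and of all genes (squares) in old fish (left) and young fish (right) under 5 ways of scaling the fish. The members' median moves between 0.59 and 1.27 in old fish and between 0.91 and 1.68 in young fish, and the median of all genes moves with it because scaling acts on all genes of a fish.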

How the data were processed

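Adipose RNA from 16 fish was measured by RNA-seq. The deposited table holds, per the labels and the values, normalized expression signal per gene and fish: the authors removed ribosomal and transfer RNA reads, used kallisto (0.45.0) with the Nfu_20140520 genome, and compared groups with DESeq2 (1.24.0), but which step scaled the table is not stated. Fish had nearly equal medians and unequal totals. Low values lay near steps of the size of 1 read, with 70.2–86.2% of them per fish within 0.1 of a step, so whole reads were not recovered and no count test was run. No other column of per-sample values was found (0).

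Values were tested as log2(value + 1) with limma (3.58.1, R 4.3.3, eBayes with trend) in 1 fit of 4 groups, with Benjamini-Hochberg adjustment over 18606 fish genes and a threshold of 0.05. The 74 ERCC rows stayed out of the tests, and the 42 ERCC rows averaging 100 units or more set the spike-in scale. Python 3.11.15 was used for counts and exact permutation tests.

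The members, lists and tests were chosen with earlier results of these data known. Identifiers are printed for the members of rank 1 and of highest mean and for the 2 with the largest called difference lower in old fish; the members described by rank beside these were chosen after their values were seen. Alternatives were scaling (CPM, spike-in, upper quartile, median of ratios), pseudocounts of 0.1 and 5, level minimums of 50 and 200, a replicate block, a stricter threshold and leaving out each fish. Choosing members without 1 fish or at 1 age, and spike-in scaling without old refed replicate 3, were added after seeing the data. Replicate numbers gave correlations of −0.336 to 0.280 over 24 pairs, 3 of them over 0.1. No pairing of fish by number was seen, which does not exclude one of small effect, and fish were treated as unpaired. Labels do not say more of each replicate than its number, and each was taken as 1 fish.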

Additional observations from a re-analysis of the deposited data

Results flagged for a closer look

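In 2 of the 24 groups of 4 fish checked, 1 fish stood apart from the other 3 by more than Dixon's 95% critical value, where chance gives about 1 in 20. ENSNFUG00015008147 had 280 units in old fasted replicate 2 and 187 to 198 in the other old fasted fish (ratio of gap to range 0.881). ENSNFUG00015013488 had 545 units in old refed replicate 4 and 350 to 373 in the other old refed fish (ratio 0.882). In both genes the fish that stood apart was the one nearest to the young fish, and the age difference stayed past the threshold without it.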

How the results depend on the processing

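Of 338 values under an alternative, 317 kept their direction and call or stayed within the spread. Some could not change, since the young fasting median does not depend on old fish nor the old one on young fish. The 317 also include the count of members called higher in old fasted fish, 114 on the spike-in scale against 150 as deposited. The tally is therefore a description. On the CPM scale 109 members were called higher and 10 lower in old than in young fish, 211 genes kept the order of the fish, and median differences were 0.82 for old fasting, 1.34 for young fasting and 0.57 for age. On the spike-in scale 86 were called higher and 15 lower in old, 68 genes kept the order, 60 members were chosen again, the medians were 0.59, 0.91 and 0.43, and the median pair correlation was 0.28. Spike-in scaling without old refed replicate 3 gave 89 higher and 11 lower. An adjusted p under 0.01 left 8 higher and 16 lower in old. No share over all genes is given for that fit or that threshold, so their counts are a description. The age difference of ENSNFUG00015000694 turned to 0.34 on the CPM scale, 0.14 on the spike-in scale and 0.19 on the spike-in scale without old refed replicate 3. The cause of these shifts was not tested.

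Leaving out each fish gave 15 to 35 members higher and 19 to 26 lower in old, 1268 to 1503 genes in order, 132 to 148 members chosen again, medians of 1.17 to 1.32 for old fasting, 1.57 to 1.74 for young fasting and 0.08 to 0.21 for age, and pair correlations of 0.38 to 0.46. ENSNFUG00015013488 and ENSNFUG00015008147 stayed lower in old past the threshold in all 24 alternatives each. With the replicate number as a block, 19 members were called higher and 23 lower in old, and 150 higher in fasted fish at each age. No share over all genes is given for the block or with a fish left out, so these counts are a description. Groups of 4 fish limit the precision. The median SD of the genes that passed the level rule was 0.138 in old fasted and 0.141 in young fasted fish. The labels give each fish no origin beyond its group.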
